A study of Mus musculus with 27 samples.

Results

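Single myofibers of mice that lack *Smn1* in skeletal muscle were compared after and without transplantation of amniotic fluid stem (AFS) cells. The comparison was set by the genotype labels: all arrays labelled Smn1deltaSKM+AFS, 7 myofibers of 2 mice, were taken against all arrays labelled Smn1deltaSKM, 12 myofibers of 3 mice. Together these are 19 of the 27 arrays and 5 of the 7 mice of the study, the others being 8 myofibers of 2 wild-type (Wt) mice. In both compared groups Cre recombinase, driven by the promoter of human skeletal actin, removes exon 7 of a floxed *Smn* gene (HSA-Cre, Smn F7/F7), so that the deletion concerns the myofibers and not satellite cells, nerve, vessels or stroma. The study's text gives other numbers of treated fibers and mice than these labels, which were followed here. The mouse is the replicate of the main test, and fits on single fibers are given as alternatives. Untreated mice received nothing. Treated mice received in the tail vein c-kit+ cells from the amniotic fluid of GFP-carrying mouse fetuses, which had been expanded in culture and sorted for c-kit and GFP. By the methods, male mice were injected at 3 months of age and killed about a month later, whereas the labels give 3 months for every group. The study's results give 3 months for the untreated knockout mice. By that account treated mice were about a month older, so age and treatment cannot be told apart. Each fiber was taken from the tibialis anterior, a fast muscle of the lower leg, after collagenase digestion, and its RNA was amplified and hybridized alone to 1 array. The 7 treated fibers were 4 of mouse 1 (numbered 1 to 4) and 3 of mouse 2 (5 to 7), and the 12 untreated fibers were 4 of each mouse in order of number.

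SMN assembles the small nuclear ribonucleoproteins that splice pre-mRNA, and its loss causes spinal muscular atrophy. A myofiber is a syncytium with its own metabolic profile: glycolytic fast fibers carry the myosin heavy chain gene *Myh4*, more oxidative fast fibers carry *Myh1* or *Myh2*, and slow fibers carry *Myh7*. Oxidative fibers burn fatty acids, which are stored in lipid droplets, shuttled into mitochondria as carnitine esters and broken down by beta-oxidation, the tricarboxylic acid cycle and the respiratory chain.

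Levels are given as log2 signal relative to the 75th percentile of the array, and differences as treated minus untreated on that log2 scale, over means of the fibers of each mouse. Arrays of treated fibers were dimmer: their 75th percentile lay between 6.49 and 7.22 in log2 signal (median 7.01), against 7.06 to 7.78 (median 7.44) for untreated fibers, and 25868 to 30478 probes had values against 23170 to 37580. The dimmest array was treated fiber 1. Scans fell on several days. Treated fibers 2 and 3 and untreated fibers 1 to 3, all of a mouse 1, were scanned on day 1, and the other 14 on day 2. The groups met on 1 slide only, which held treated fiber 4 and untreated fiber 4. The correlation between fibers, taken across genes, which are not independent replicates, varied with scan day and mouse. Between treated and untreated fibers it averaged 0.956 on day 2 (45 pairs), 0.914 on day 1 (6 pairs) and 0.903 across days (33 pairs). Between untreated fibers of 1 mouse it averaged 0.974 on day 2 (12 pairs) and 0.915 across days (3 pairs), and between untreated fibers of different mice on day 2 it averaged 0.953 (24 pairs).

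The targeted gene did not separate the groups. Of a pair of *Smn1* probes on the array, the brighter lay at 3.00 and 2.58 in the treated mice and at 3.10, 2.17 and 2.52 in the untreated mice (difference 0.20, standard error 0.351). The other probe lay at -0.34 and 0.82 against -0.07, 0.20 and 0.36 (difference 0.08). Which of the probes lies in the deleted exon was not established here, so their levels do not check the deletion. Of the 9 tested genes of the SMN complex, which loads Sm proteins onto small nuclear RNAs, 8 lay higher and 1 lower in treated mice, at a median of 0.15 that ran from -0.07 without treated mouse 1 to 0.45 without untreated mouse 1. They ran from *Gemin6* (-0.11) to *Gemin5* (0.46), the subunit that recognizes the RNA. None passed an unadjusted p of 0.05.

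With mice as replicates no gene was called. Of 16621 genes tested by limma, 0 (0%) had an adjusted p under 0.05, and the lowest adjusted p was 0.9997. An unadjusted p under 0.05 was found for 532 genes, 453 higher (2.73%) and 79 lower (0.475%) in treated mice. Both treated mice lay above all 3 untreated mice for 2049 (12.4%) and below them for 695 (4.2%) of the 16555 genes with values in all 5 mice. Counts over gene groups are read against these shares. With arrays centred on the median probe among those found on every array, limma gave 217 higher and 155 lower at the unadjusted threshold, and 1275 above and 1129 below. The split of genes above and below was 1303 to 827 with quantile normalization, 1291 to 851 with normexp before it and 1227 to 863 with the authors' value table.

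Of all genes tested 57.3% lay higher in treated mice, at a median difference of 0.06, and counts of higher genes are read beside that share. This median depended on the level of the gene, from -0.06 in the lowest of 10 equal groups of genes ordered by level to 0.24 in the highest, in which 86.6% of genes lay higher in treated mice. The plot by level shows that mitochondrial genes of the MitoCarta list lay above the other genes in each group. Since many genes of muscle metabolism and contraction are expressed at high levels, the group values below were not separated from this trend, and its part in them was not tested.

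**Figure D1:**
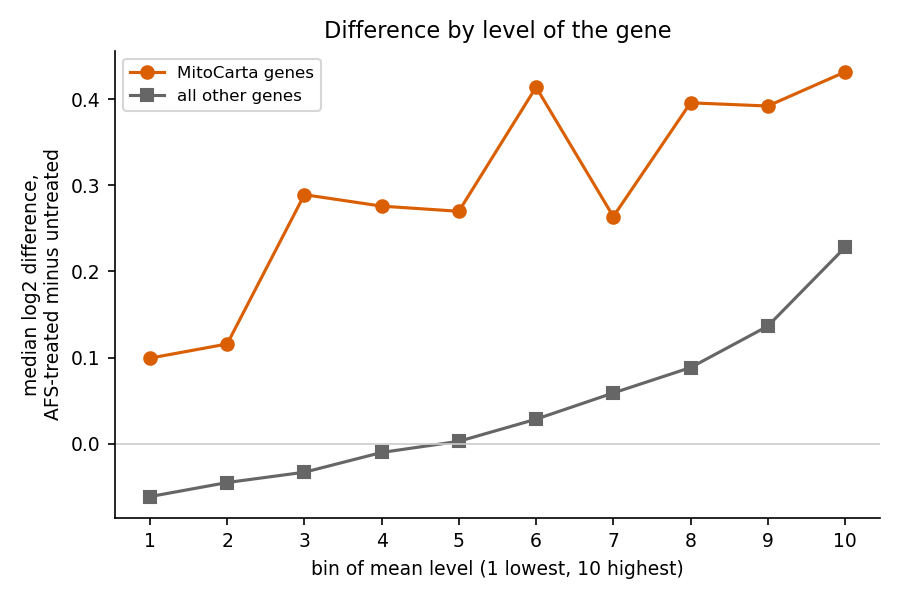
Median log2 difference, treated minus untreated (vertical axis), in 10 equal groups of genes ordered by mean level (horizontal axis), for MitoCarta genes and for all other genes tested. Other genes climb from -0.06 to 0.23 with level, and MitoCarta genes lie above them in every group, from 0.10 to 0.43.

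Genes of fatty acid oxidation had the highest median of the 45 groups over mouse means. Of the 23 tested of 26 listed, 22 lay higher in treated mice, at a median of 0.89, and 16 (69.6%) had an unadjusted p under 0.05 against 2.73% of all genes. Both treated mice lay above all untreated mice for 18 of the 22 with values in every mouse (81.8%, against 12.4% of all genes). The median was 0.82 on scan day 1, where 1 mouse of each group was scanned, 0.97 on day 2 and 0.51 between the 2 fibers that shared a slide. These genes follow the path of a fatty acid through the fiber, and apart from *Acadl* and *Eci2*, the top and bottom of the group, the members named here were chosen after their values were seen. The count of 16 became 8 without treated fiber 1, 8 without treated mouse 1, 4 without treated mouse 2, 10 without untreated mouse 3, 9 with quantile normalization or the authors' value table and 8 with median centring, while the median stayed between 0.55 and 1.06 under all 25 alternatives.

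*Lpl*, the lipase that frees fatty acids from circulating triglyceride, lay at 1.14 and 2.45 in treated mice and at 0.45, 0.34 and 0.80 in untreated mice, a difference of 1.27. *Slc27a1*, a fatty acid transporter of the cell membrane, differed by 1.14. *Cpt1b*, which makes the carnitine esters that enter the mitochondrion and sets the pace of oxidation in muscle, lay at 4.70 and 5.13 in treated mice and at 3.27, 4.44 and 4.26 in untreated mice, a difference of 0.92 (standard error 0.383). Thus the groups of mice did not overlap for *Lpl* and *Cpt1b*, with untreated mouse 1 the lowest for *Cpt1b*.

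Among dehydrogenases of beta-oxidation, *Acadvl*, which starts the cycle on very long chains, lay at 5.08 and 5.55 in treated and at 3.22, 4.56 and 4.47 in untreated mice. *Acadvl* thus differed by 1.23 (standard error 0.430), with a 95% confidence interval of 0.24 to 2.21 and an unadjusted p of 0.0205 (limma, adjusted p = 0.9997). By fiber, *Acadvl* ranged from 4.25 to 6.45 in treated and from 2.21 to 5.61 in untreated fibers, so single fibers overlapped where mice did not. *Acadl*, which takes long chains, had the largest difference of the group at 1.32, but treated mouse 1 at 1.52 lay below untreated mouse 2 at 1.92. *Hadha*, the subunit of the trifunctional protein that carries the next steps, lay at 2.91 and 3.48 against 2.07, 2.10 and 2.25, a difference of 1.05 (limma, unadjusted p = 0.00651, adjusted p = 0.9997). *Ucp3*, an uncoupling protein of muscle induced by fatty acids, lay at 1.65 and 1.65 against 0.76, -0.07 and 0.82. *Eci2*, an isomerase for unsaturated chains, was the only member lower in treated mice, at -0.63.

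The path of fatty acids was also seen in lipid droplet genes, of which 13 of 17 tested lay higher and 4 lower, at a median of 0.71. An unadjusted p under 0.05 was found for 6 (35.3%), all higher. *Plin5*, a droplet coat protein that ties droplets to mitochondria in oxidative muscle, lay at 0.49 and 0.48 in treated mice and at -1.54, -1.06 and -1.12 in untreated mice. Its difference of 1.73 (standard error 0.287) had an unadjusted p of 0.000266 (limma, adjusted p = 0.9997). Fibers of 1 treated mouse were far apart: *Plin5* lay at 2.47, -1.38, 1.13 and -0.25 in the 4 fibers of mouse 1 and at 0.76, -1.17 and 1.85 in the 3 fibers of mouse 2. *Plin3*, a coat protein found on droplets of most cells, lay at 1.01 and 2.09 against -0.08, 0.20 and 0.09 (difference 1.48), and *Plin4* differed by 1.11. *Plin2*, the general droplet coat, did not follow. It lay at -0.44 and -2.31 in treated mice against 0.55, -1.87 and -2.63, a difference of -0.06 (standard error 0.891). *Mgll*, which splits the last fatty acid from a monoglyceride, had the lowest difference of the group at -0.56.

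Since genes of both groups lay higher together, their promoters were read in RefSeq for AGGTCA on either strand (TGACCT on the other), the hexamer bound by nuclear receptors such as the PPAR and ERR families, which act on fat oxidation. It was present in 4 of 18 promoters of fatty acid oxidation genes (22.2%) and in 4 of 14 of lipid droplet genes (28.6%), against 16.0% of all 27025 promoters and 13.2% of 8411 promoters of tested genes. For other groups the share was 21.9% for complex I, 25.8% for complexes II to V, 13.0% for the tricarboxylic acid cycle and 17.6% for branched-chain amino acids. A match is a description of the letters and not of a bound site. The promoters of *Acadvl* (GRCm38.p6, chr11:70015379-70015678, minus strand) and *Plin5* (chr17:56117499-56117798, minus strand) are shown from 250 bases before to 50 bases after the start as examples of genes with values above that hold the hexamer, which is in capitals. The hexamer was also in the promoter of *Plin2*, whose difference is given above as -0.06, and its letters were not in the window of *Acadl*, which had the largest difference of the fat oxidation genes.

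Acadvl: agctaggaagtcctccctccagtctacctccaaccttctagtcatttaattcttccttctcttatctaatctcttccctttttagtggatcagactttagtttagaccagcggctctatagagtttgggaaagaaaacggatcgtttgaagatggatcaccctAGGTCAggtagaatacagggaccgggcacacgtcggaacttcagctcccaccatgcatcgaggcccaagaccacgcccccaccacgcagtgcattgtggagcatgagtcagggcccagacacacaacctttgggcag

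Plin5: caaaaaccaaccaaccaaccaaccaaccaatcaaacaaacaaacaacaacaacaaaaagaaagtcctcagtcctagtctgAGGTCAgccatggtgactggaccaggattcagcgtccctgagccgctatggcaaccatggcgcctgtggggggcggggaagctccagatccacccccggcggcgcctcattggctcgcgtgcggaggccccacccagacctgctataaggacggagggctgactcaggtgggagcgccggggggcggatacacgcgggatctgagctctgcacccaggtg

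Mitochondrial genes downstream of beta-oxidation lay higher by smaller amounts. In the tricarboxylic acid cycle and pyruvate entry 25 of 26 tested genes lay higher, at a median of 0.61, and 8 (30.8%) had an unadjusted p under 0.05. *Dlst*, a subunit of the oxoglutarate dehydrogenase complex, had the largest difference at 1.19, and its levels of 3.75 and 4.17 in treated mice stood above 3.19, 2.62 and 2.50 in untreated mice. *Pdp1*, the phosphatase that activates pyruvate dehydrogenase, had the lowest at -0.03. All 36 nuclear subunits of complex I lay higher in treated mice, between 0.30 and 0.74 for *Ndufs1*, at a median of 0.53. Both treated mice exceeded all untreated mice for 29 of them (80.6%, against 12.4% of all genes), and 11 (30.6%) had an unadjusted p under 0.05. All 40 genes of complexes II to V and cytochrome c lay higher too, at a median of 0.49. Both treated mice exceeded the untreated ones for 34 (85%), and *Uqcrc1*, a core subunit of complex III, led with 6.41 and 6.40 against 5.55, 5.22 and 5.43 (difference 1.00, standard error 0.252). Respiratory chain genes thus differed by little and with little spread among themselves, whereas fat oxidation genes ran from -0.63 to 1.32. The 11 genes of complex I past the unadjusted threshold became 1 without treated fiber 1 and 0 without treated mouse 1 or with quantile normalization, and the 11 of complexes II to V became 4, 5 and 2, while both medians kept their sign under all 25 alternatives.

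**Figure D2:**
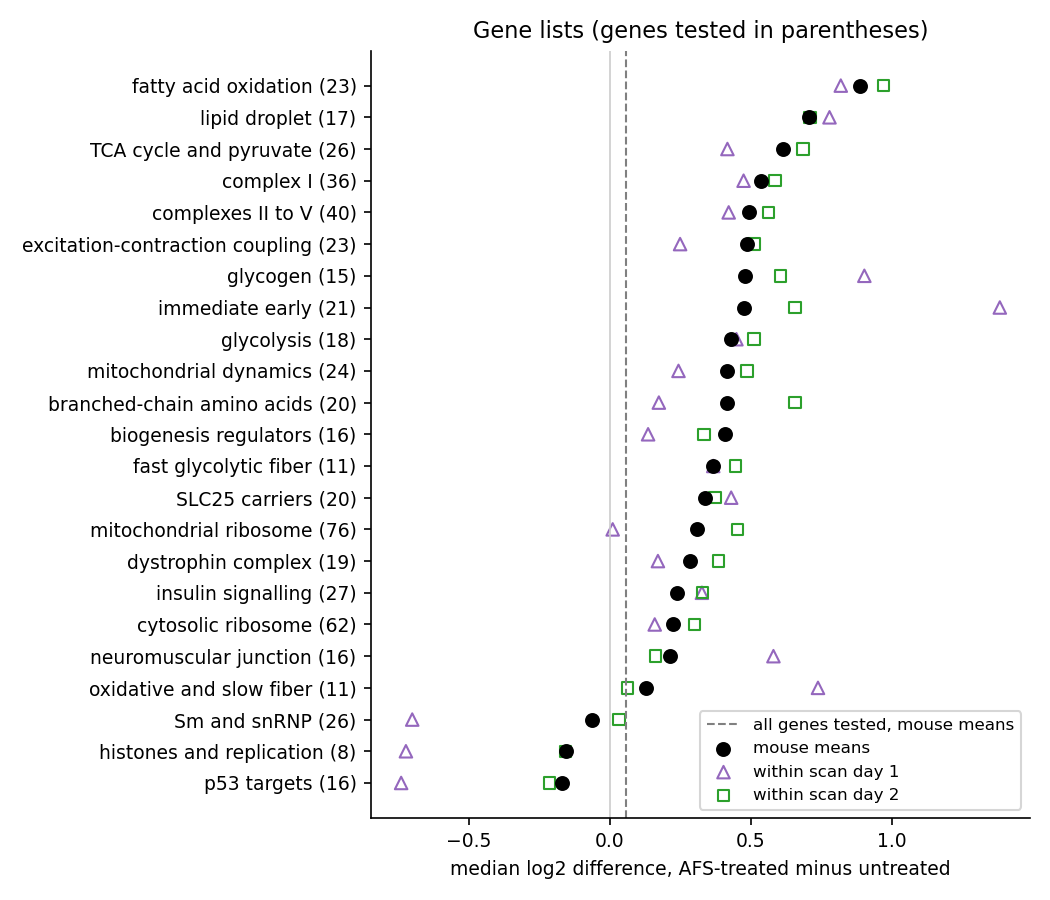
Median log2 difference, treated minus untreated, of the gene groups over mouse means and within each scan day (day 1 holds 1 mouse of each group), beside the median of all genes. Fatty acid oxidation is highest over mouse means at 0.89, and the mitochondrial ribosome lies at 0.01 on day 1 and 0.45 on day 2.

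The whole MitoCarta list, 888 genes tested of 1125 on the array, showed the dependence on the scan day. Over mouse means 759 lay higher and 129 lower, at a median of 0.36, and 136 (15.3%) were higher and 0 lower at an unadjusted p under 0.05. On day 2 the median was 0.44 against 0.06 for all genes. On day 1 it was 0.19, below the 0.21 of all genes, and between the fibers of the shared slide it was 0.16 against 0.12. The day values of the parts of the list differed: complex I lay at 0.47 on day 1 and 0.59 on day 2, whereas proteins of the mitochondrial ribosome, of which 70 of 76 tested lay higher (median 0.31), lay at 0.01 on day 1 and 0.45 on day 2. Within that group *Mrps15* was highest (0.84) and *Mrpl40* lowest (-0.22). Mouse and day cannot be told apart on day 1, when only the mice numbered 1 were scanned.

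Among carriers of the inner membrane 15 of 20 tested lay higher, at a median of 0.34, and 4 (20%) had an unadjusted p under 0.05. *Slc25a42*, the carrier of coenzyme A, differed by 1.45 (-0.34 and 0.33 against -2.59, -1.01 and -0.75), and *Slc25a25*, a calcium-regulated ATP-Mg carrier, by 1.44 (0.98 and 1.80 against -0.29, -0.73 and 0.89). *Slc25a40*, a glutathione carrier, was lowest at -0.58. All 24 genes of mitochondrial fusion, fission, cristae and mitophagy lay higher (median 0.42), led by *Mief2*, a receptor of the fission GTPase (difference 1.24, limma, unadjusted p = 0.00166, adjusted p = 0.9997). On day 1 the median of these genes was 0.24 against 0.21 for all genes, and 16 of the 24 lay higher. *Bnip3* and *Fundc1*, receptors that hand mitochondria to autophagosomes, were at 0.27 and 0.25 within that group, with intervals that hold 0. The insertase *Oxa1l* (0.30) and the assembly factor of cytochrome oxidase *Tmem177* (0.37) behaved alike, and *Cox18* had values on only 2 treated and 6 untreated arrays and was not tested.

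Breakdown of branched-chain amino acids, another mitochondrial fuel path, held 19 genes higher of 20, at a median of 0.42 (0.17 on day 1 and 0.66 on day 2). *Bckdha*, the catalytic subunit of its committed step, was highest (1.12) and *Acadsb* lowest (-0.03). Of 16 tested regulators of mitochondrial biogenesis, 12 lay higher (75%, against 57.3% of all genes), at a median of 0.41. Without treated mouse 1 that median was 0.11, and on day 1 it was 0.14, below the 0.21 of all genes. *Perm1*, a muscle gene induced by PGC-1 coactivators and ERR receptors, had levels of 3.79 and 4.89 in treated mice and of 1.93, 2.88 and 3.01 in untreated mice (difference 1.74, limma, unadjusted p = 0.0043, adjusted p = 0.9997). *Ppargc1a*, the PGC-1alpha gene itself, lay at 3.52 and 2.20 against 3.09, 2.97 and 3.33 and was the lowest of the regulators at -0.27.

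The level of *Myh1* varied between fibers within each mouse, and fat oxidation genes varied with it. *Myh1*, a myosin of fast fibers more oxidative than those with *Myh4* alone, lay at 7.81, 3.65, 7.40 and 3.28 in the fibers of treated mouse 1. In those of mouse 2 it lay at 6.83, -0.28 and 7.75. In untreated fibers with a value it ranged from 0.55 to 6.77 with a median of 3.94. Over mice it lay at 5.54 and 4.77 against 3.24, 4.13 and 4.34, a difference of 1.25 (limma, unadjusted p = 0.0376, adjusted p = 0.9997). *Myh4*, the myosin of glycolytic fibers, lay between 6.01 and 7.49 in treated and between 6.67 and 7.40 in untreated fibers and differed by -0.05. *Myh7* differed by 0.13, and *Myh2* had values on 2 treated and 2 untreated arrays only.

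The fibers richest in *Myh1* were those with the most fat oxidation transcripts. Relative to the untreated mean, the median of the fatty acid oxidation genes was 1.53, 1.36, 0.98 and 0.84 in treated fibers 1, 7, 3 and 5, all with *Myh1* at 6.83 or more, and 0.13, 0.33 and 0.55 in fibers 2, 4 and 6, with *Myh1* at 3.65 or less. Among untreated fibers the highest values, 0.88 and 0.70, were those of fibers 7 and 10, where *Myh1* was 6.58 and 6.77. All other untreated fibers lay between -0.70 and 0.55. With the *Myh1* level of each fiber as a covariate, the median difference of fatty acid oxidation genes went from 0.87 to 0.64, of lipid droplet genes from 0.69 to 0.50, of tricarboxylic acid cycle genes from 0.61 to 0.46, of complex I from 0.54 to 0.40 and of MitoCarta genes from 0.36 to 0.29, each against the same fit without it. The number of fatty acid oxidation genes with an unadjusted p under 0.05 went from 14 to 6, with 22 of 23 higher in both fits. Both fits were run on fibers, with the mouse as a random block. The covariate was chosen after seeing the data, and a fiber without a *Myh1* value entered with its measured signal. Wt fibers were also in the covariate fit and helped to set its common slope on *Myh1*. A difference in the types of fiber drawn and a difference within fibers of 1 type cannot be told apart here.

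**Figure D3:**
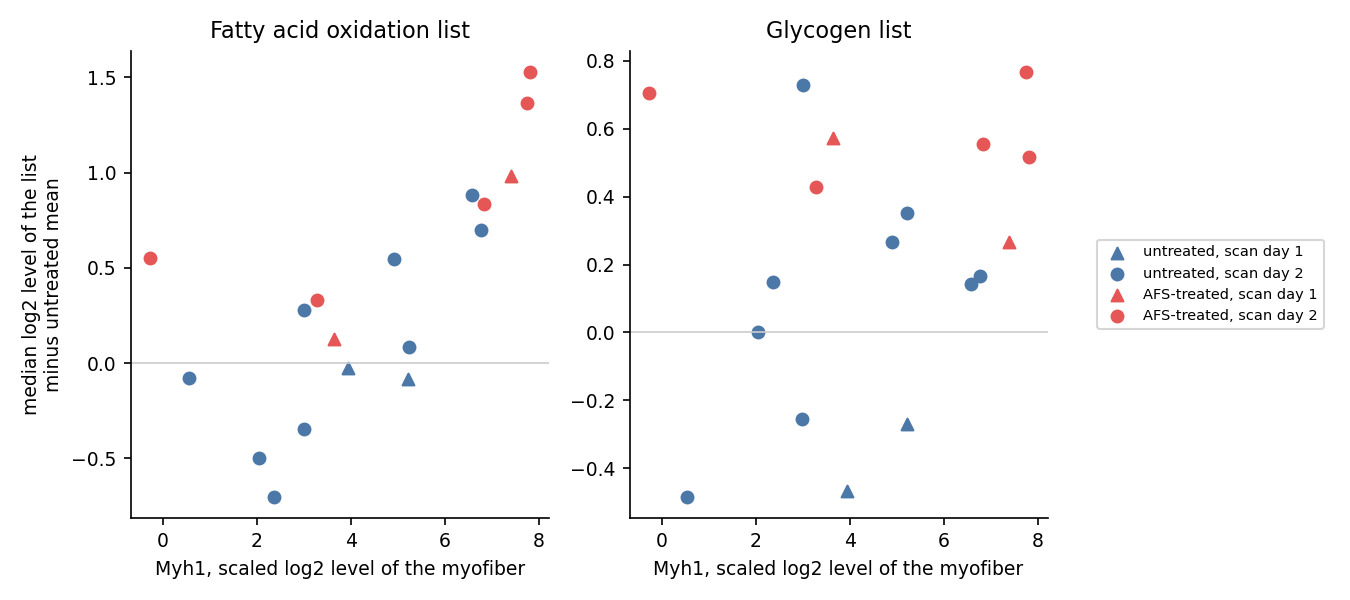
Median level of fatty acid oxidation genes (left) and of glycogen genes (right) in each fiber, relative to the mean of untreated fibers, against the log2 level of Myh1. Fibers are coloured by group, and untreated fiber 2 is left out because it has no Myh1 value. Treated fibers with Myh1 at 6.83 or more have the highest fat oxidation levels of their group, up to 1.53, and glycogen genes show no such order.

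Other genes of oxidative fibers were mixed. Of 11 tested genes of fast oxidative and slow fibers, 8 lay higher and 3 lower, at a median of only 0.13. *Mb*, the oxygen store myoglobin, lay at 6.26 and 6.82 against 4.43, 5.43 and 5.61 (difference 1.38). *Mybpc1*, a myosin-binding protein, lay at 6.29 and 6.87 against 4.79, 6.02 and 5.13 (1.26). *Myl3*, a slow light chain, differed by 1.58, carried by treated fibers 3 and 7 at 4.98 and 4.47 while the other 5 lay between -2.42 and 0.11. With *Myh1* as a covariate the difference of *Mb* went from 1.36 to 0.59 and that of *Mybpc1* from 1.25 to 0.97. *Atp2a2*, the slow calcium pump, was lowest at -1.25 with a standard error of 1.12. Among 11 fast glycolytic genes 10 lay higher, between *Myh4* (-0.05) and the fast troponin gene *Tnni2* (0.57), at a median of 0.36.

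Genes of sugar metabolism lay higher, and those of glycogen did so without following *Myh1*. All 15 tested genes of glycogen synthesis and breakdown lay higher, at a median of 0.48, though only 1 had an unadjusted p under 0.05. That was *Gys1*, the glycogen synthase of muscle, at 5.19 and 5.98 against 3.42, 4.80 and 4.96 (difference 1.19). The median was 0.90 on day 1, 0.61 on day 2 and 1.05 on the shared slide, and it went from 0.47 to 0.48 with the *Myh1* covariate. Untreated fibers 1 to 4, all of mouse 1, were the lowest at -1.01 to -0.27, and without that mouse the median was 0.32, while without treated mouse 1 it was 0.79. Of 18 tested genes of glycolysis and lactate 15 lay higher (median 0.43), from the brain-type hexokinase *Hk1* (-0.95) to the lactate exporter *Slc16a3* (1.02). *Gab1*, an adaptor of insulin and growth factor receptors, differed by 2.03, but had values on only 4 of 7 treated arrays, at -0.02 and 1.86 in fibers scanned on day 1 and -2.19 and -2.19 in fibers of day 2, against -2.08 or lower in untreated fibers. The difference was 3.01 on day 1 and 0.56 on day 2.

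Genes of excitation and contraction held few members past the unadjusted threshold. Of 23 tested genes of calcium release and uptake 20 lay higher (median 0.49, and 0.32 without untreated mouse 1), and 2 had an unadjusted p under 0.05. These were *Ryr1*, the calcium release channel (5.25 and 5.55 against 4.31, 4.50 and 4.93), and *Jph2*, which holds the triad membranes together (3.82 and 4.02 against 3.31, 2.92 and 3.33). *Stac3*, which couples the voltage sensor to that channel, had the largest difference at 1.20, with untreated mouse 1 at 0.48 and all other mice between 3.23 and 3.75, and *Atp2a2* the lowest. Of 19 sarcolemma genes 15 lay higher, at a median of 0.28 that was 0.17 on day 1, below the 0.21 of all genes. Among them *Dmd*, the dystrophin gene, differed by 0.62, while *Utrn*, the synaptic counterpart of dystrophin, was lowest at -0.33. Of 16 neuromuscular junction and denervation genes 11 lay higher (68.8%, against 57.3% of all genes), at a median of 0.21 that was 0.033 without treated mouse 1 and 0.13 without untreated mouse 1. The muscle sodium channel *Scn4a* was highest (1.28), and *Ache* (0.95) and *Chrne* (0.84), the acetylcholinesterase and the adult subunit of the acetylcholine receptor, had an unadjusted p under 0.05. *Musk*, the kinase that organizes the synapse, was lowest at -0.59.

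Largest single differences were chosen by a rule that asked for values on at least 5 treated and 9 untreated arrays, an unadjusted p under 0.05, mice that did not overlap and the same direction on both scan days. It was met by 362 genes higher and 43 lower, of which the 12 largest of each are given. The difference itself is what chose them. The highest was *6430411K18Rik*, a transcript of no known protein (2.21), at 3.84 and 4.15 against 0.90, 3.59 and 0.86. Next came *Pde4a*, a phosphodiesterase of cyclic AMP (2.06), and *Ptpn3*, a tyrosine phosphatase at the membrane (1.97), the latter at 2.99 and 4.11 against 1.52, 1.87 and 1.37. *Aqp4*, the water channel of fast fibers, differed by 1.90 and the glutamine transporter *Slc38a3* by 1.77, followed by *Perm1* and *Plin5*.

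*Spint2*, an inhibitor of serine proteases, differed by 1.70, the transferrin receptor *Tfrc*, which brings in iron, by 1.65, the membrane anchor *Ank2* by 1.58, the scaffold *Mpdz* by 1.54 and *Actn2*, an actinin of the Z disc, by 1.53. Untreated mouse 1 lay well below all other mice for *Tfrc*, at 1.76 and 2.42 in treated and -0.97, 1.36 and 0.95 in untreated mice. It was also far the lowest for *Pde4a* (3.04 and 4.11 against -0.15, 2.43 and 2.275) and *Slc38a3* (1.28 and 2.235 against -1.635, 0.60 and 0.98). *Actn2* lay at 3.67 and 4.20 in treated and at 2.45, 2.23 and 2.54 in untreated mice. These means were close within each group, but single fibers overlapped, from 2.47 to 4.83 in treated and from -0.88 to 4.43 in untreated fibers. With the *Myh1* covariate *Actn2* went from 1.51 to 0.83, *Spint2* from 1.62 to 0.72, *Plin5* from 1.72 to 1.35 and *Perm1* from 1.70 to 1.22. *Mpdz* and *Slc38a3* differed more on day 1 (3.15 and 3.03) than on day 2 (1.16 and 1.66), and *Mpdz* reached 4.90 in treated fiber 2 against 0.81 to 1.95 in the other treated fibers.

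Among the 12 lowest, several differences rested on untreated mouse 1. *Sulf1*, which trims heparan sulfate (-1.77), lay at 1.66 in that mouse, -1.05 and -1.25 in the other untreated mice and -1.86 and -2.10 in treated mice. Untreated mouse 1 was likewise highest for *4930522L14Rik* (-1.60), *Fndc10* (-1.55) and *Eda2r*, a TNF family receptor and p53 target (-1.45). It was also highest for *Crlf2*, a cytokine receptor subunit (-1.28), *Ngfr*, the p75 neurotrophin receptor (-1.21), and *Hddc3* (-1.12). *Tmem254a* (-1.34) lay at -1.16 and -1.31 against 0.66, 0.01 and -0.34. *Myl4*, the light chain of embryonic muscle, lay at 2.34 and 1.71 against 3.44, 2.65 and 4.22 (-1.42). Its group of 12 tested genes, developmental myosins and genes of regenerating fibers, was mixed. Of these, 8 lay higher (66.7%, against 57.3% of all genes) and 4 lower, and *Myh8* was highest at 0.58. *Mss51*, a mitochondrial gene of muscle, lay at 0.37 and 0.29 against 0.91, 2.06 and 2.06 (-1.35). *Rassf7* lay at -0.34 and -0.43 against 0.90, 0.37 and 0.92 (-1.12).

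*Neat1*, the long noncoding RNA that builds nuclear paraspeckles, had the lowest unadjusted p of the 12 lower genes named here. The array holds 6 probes in a short stretch of it (mm9, chr19:5842534-5842845, minus strand). On its brightest probe treated mice lay at 2.82 and 2.01 and untreated mice at 3.90, 3.80 and 4.22, a difference of -1.56 (standard error 0.337) at an unadjusted p of 0.00156 (limma, adjusted p = 0.9997). Of the 7 treated fibers, 6 lay between 0.75 and 3.00, below every untreated fiber (3.12 to 4.47), and fiber 2, scanned on day 1, lay at 4.47. The difference was accordingly -0.66 on day 1 and -1.68 on day 2. On the 6 probes it ran from -1.92 to -1.25, and on each both treated mice lay below all 3 untreated mice. With the *Myh1* covariate it went from -1.53 to -1.49. With fibers taken as replicates, which ignores that fibers of a mouse belong together, *Neat1* was among 20 genes called (-1.50, limma, adjusted p = 0.0471). The probes read 1 stretch of the transcript and are not independent. The 5 that do not overlap are shown in order of position, since together they span the stretch.

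NEAT1 probe 1, chr19:5842534-5842593, difference -1.92: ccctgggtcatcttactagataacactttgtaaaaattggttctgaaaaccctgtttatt

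NEAT1 probe 2, chr19:5842594-5842653, difference -1.58: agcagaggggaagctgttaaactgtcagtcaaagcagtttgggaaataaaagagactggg

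NEAT1 probe 3, chr19:5842654-5842713, difference -1.63: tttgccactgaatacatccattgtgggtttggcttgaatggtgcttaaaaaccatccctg

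NEAT1 probe 4, chr19:5842726-5842785, difference -1.57: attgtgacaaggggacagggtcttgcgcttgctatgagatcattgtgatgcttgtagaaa

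NEAT1 probe 5, chr19:5842786-5842845, difference -1.25: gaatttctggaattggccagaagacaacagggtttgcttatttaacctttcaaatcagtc

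**Figure D4:**
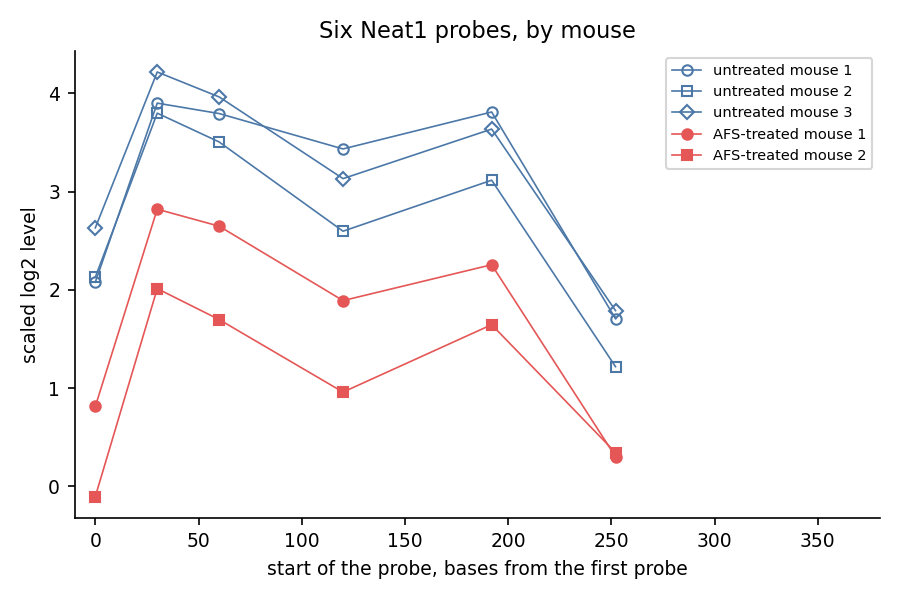
Scaled log2 level of the Neat1 probes in each mouse, against the distance in bases from the first probe. Both treated mice lie below all 3 untreated mice at each probe.

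The neighbouring nuclear RNA *Malat1* had values on 5 treated and 8 untreated arrays and was not tested. Immediate early genes, which answer stimulation or handling within minutes, lay higher for 17 of 21 tested (median 0.47). The median was 0.060 without treated mouse 1, 0.15 without untreated mouse 1 and 0.76 without treated mouse 2, and it was 1.38 on day 1, 0.66 on day 2 and 2.11 on the shared slide. *Fos* was highest at 1.48 (3.74 and 5.18 against 0.96, 3.79 and 4.22) and *Arc* lowest at -1.02, and *Atf3* (1.08) and *Jund* (0.96) had an unadjusted p under 0.05. *Rrad*, a small GTPase, split the treated mice: it lay between 7.31 and 7.68 in the fibers of mouse 1 and at 5.12, 1.99 and 4.64 in those of mouse 2, on either side of the untreated mice at 5.90, 6.33 and 5.56. Of 16 tested genes of the p53 response, 11 lay lower (median -0.17), from *Eda2r* (-1.45) to the ribonucleotide reductase subunit *Rrm2b* (0.63). Without untreated mouse 1 that median was 0.12.

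Summed markers of other cells overlapped between treated and untreated fibers. Of the 5 satellite cell markers *Pax7* had a value on 1 treated and 1 untreated array, *Megf10* on 0 and 1 and *Calcr* on none. *Vcam1* had values on 3 treated and 11 untreated arrays, and these markers were not tested. *Cdh15*, the only one tested, differed by 0.50 (standard error 0.309). The 6 tested of 8 leukocyte markers, summed, ran from 7.85 to 8.29 in treated fibers and from 7.56 to 8.03 in untreated fibers, at medians of 8.09 and 7.86. Most of this sum was *Itgam*, at 7.95 in both treated mice and 7.62 to 7.82 in untreated mice. The 2 tested of 6 fibroblast markers ran from 0.83 to 3.81 and from 0.32 to 4.78, with *Pdgfra* at no value on any array of the compared groups, and the 2 tested of 6 endothelial markers from 3.88 to 4.38 and from 3.50 to 4.13. Myofiber markers, 16 of 17 tested, ran from 11.2 to 11.8 and from 10.5 to 11.3. Of 3 red blood cell markers only alpha globin, *Hba-a1*, was tested. It lay between 3.12 and 5.25 in treated fibers 1, 2, 3 and 5 and in untreated fibers 5, 6, 7 and 12. In all other fibers of both groups it lay at 0.21 or less. *Hbb-b1* had values on 2 treated and 3 untreated arrays, and *Alas2* on 1 and 2. *Kit*, the gene of the surface protein by which the injected cells were sorted, had values on 3 treated and 8 untreated arrays, at medians of -2.29 and -2.68, and was not tested. *Myh3*, the embryonic myosin, had values on 1 treated and 3 untreated arrays. The part of these cells in the metabolic values was not tested.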

How the data were processed

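RNA of single tibialis anterior myofibers was hybridized in 1 colour to Agilent mouse arrays of 55681 probes, 27 arrays in all. The deposited scanner files hold intensity per spot, background-subtracted and detrended by Feature Extraction (10.7.3.1 in the submitters' processing notes) and not scaled between arrays, and the authors also deposited a table of intensity values equalized between arrays, used as an alternative. Comparison columns of the authors were not used, and 0 columns belonged to other samples. Here log2 intensity minus each array's 75th percentile was taken, from the deposited signal, with no value where a spot was not found, not well above background or flagged as an outlier. A probe entered the tests if at least 75% of arrays gave it a value (22154 probes did), and the brightest stood for each of 16621 genes, 10959 with a RefSeq symbol. Probe positions are of mm9, and promoters are RefSeq's on GRCm38.p6.

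Fibers were averaged within mice, the unit that was treated, and limma 3.58.1 in R 4.3.3 compared 2 treated with 3 untreated mice, with 2 Wt mice in the fit for the spread only, at a Benjamini-Hochberg adjusted p under 0.05. The labels name no batches. Apart from the 1 slide on which the groups met, each slide held fibers of 1 group only, so slide and treatment cannot be told apart there. The number of mice and of arrays limits the precision. Named genes were the 12 largest differences each way by the rule in the text, the highest and lowest member of each list described, and fixed genes of the study. Other members of lists were named after their values were seen, and 1 gene chosen by the rule is not reported here. Members, the 45 gene lists and tests were chosen with earlier results of these data known. Lists are described by counts and medians only. Alternatives covered normalization, background, dim spots, filters, probes of a gene, scan day, slide, fibers as replicates and leaving out mice or arrays. The clustering and template tests of the study were not repeated.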

Additional observations from a re-analysis of the deposited data

Results flagged for a closer look

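Among the 7 treated fibers, the highest or lowest value stood apart from the others by Dixon's ratio for 12 of 111 genes, gene lists and array measures examined. Chance alone flags a small share of such groups, and flags of 1 fiber are not independent of each other.

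Treated fiber 3 of mouse 1, scanned on day 1, stood apart most often. It was highest for *Smn1* at 3.88 (next 2.96), *Gemin5* at 2.04 (next 0.50), *Dmd* at 3.66 (next 2.31) and *Plin2* at 2.24 (next -0.92), and the median of the SMN complex genes relative to the untreated mean was 1.45 in it (next 0.33). It was lowest for *6430411K18Rik* at 2.52 (next 3.98), for *Stac3* at 2.20 (next 3.44) and for the median of all genes at -0.068 (next 0.043). The differences of *Smn1*, *Gemin5*, *Dmd* and *Plin2* include this fiber.

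Treated fiber 1 of mouse 1, the dimmest array, was highest for the medians of complex I at 1.20 (next 0.61) and of complexes II to V at 1.20 (next 0.63), and lowest for *Jph2* at 2.97 (next 3.78). Treated fiber 2 of mouse 1 was highest for *Mpdz* at 4.90 (next 1.95).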

How the results depend on the processing

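Dim arrays and few mice limit these values. No gene was called by limma under any alternative but fibers as replicates (20) and slide as a fixed block (360), where the contrast rests on 1 treated and 1 untreated fiber of 1 slide. Genes with an unadjusted p under 0.05 numbered 821 with no filter, 2199 with fibers as replicates, 1223 with scan day and 1538 with slide as fixed blocks, 1329 with slide as a random block, 895 without untreated fibers 1 to 3, and 322 (without treated mouse 2) to 1525 (without untreated mouse 1) with a mouse left out. Genes whose mice did not overlap numbered 4208 (without untreated mouse 3) to 7572 (without untreated mouse 1) with a mouse left out, partly because fewer mice have to be separated. They were also 4212, 6725 and 6756 without untreated mouse 2, treated mouse 1 and treated mouse 2.

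The MitoCarta median was 0.26 with quantile normalization, 0.20 with normexp, 0.24 with the authors' table, 0.27 with median centring, 0.16 and 0.29 with slide as a fixed and a random block, 0.44 on day 2, 0.19 on day 1, 0.29 without the dimmest array, 0.29 with *Myh1* as a covariate and 0.31 to 0.39 with a mouse left out. Mouse numbers of the groups are only shared numbers (correlation of deviations 0.309 and 0.189 over 2 pairs); with the number as a replicate block limma called 0 genes, 722 had an unadjusted p under 0.05, the MitoCarta median was 0.31 and *Acadsb* turned to 0.13.

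The log2 differences and list medians that turned follow by setting, and the cause was not tested. Leaving out the dimmest array and the *Myh1* covariate were chosen after seeing the data. With quantile normalization *Plin2* was 0.077. With the authors' table *Plin2* was 0.068. With dim spots kept *Slc25a40* was 0.32. With the mean of the probes of a gene *Acadsb* was 0.18. With fibers as replicates they were *Plin2* 0.073 and *Rrad* 0.018. With slide as a fixed block they were regulators of biogenesis -0.066, oxidative fiber genes -0.20, *Mss51* 1.31, *Lpl* -0.44, *Plin3* -0.014, *Plin2* 0.65, *Mgll* 0.17, *Pdp1* 0.39, *Ppargc1a* 0.010, *Gab1* -0.11, *Myh4* 0.52, *Mb* -0.68, *Myh7* -0.46, *Arc* 0.092, *Smn1* -0.0040, *Gemin5* -0.17, *Gemin6* 0.21, *Rrad* 2.92 and *Hba-a1* -0.29. With slide as a random block they were *Acadsb* 0.012, *Myh4* 0.13, *Gemin6* 0.025 and *Rrad* 0.87. On day 2 they were *Plin2* 0.39, *Pdp1* 0.61, *Slc25a40* 0.27, *Mrpl40* 0.00054, *Myh7* -0.12 and *Rrad* 0.26. On day 1 they were the SMN complex -0.023, *Acadsb* 0.52, *Ppargc1a* 0.26, *Tmem177* -0.28, *Myh4* 0.34, *Arc* 0.46, *Gemin6* 0.41 and *Rrad* 1.12. Without untreated fibers 1 to 3 they were *Plin2* 0.66, *Pdp1* 0.58, *Slc25a40* 0.13, *Gemin6* 0.36 and *Rrad* 0.30. Without the dimmest array they were *Plin2* 0.041, *Acadsb* 0.020, *Myh4* 0.12 and *Gemin6* 0.12. With *Myh1* as a covariate they were *Plin2* 0.027, *Acadsb* 0.012 and *Myh4* 0.026. With 1 mouse left out the differences ran for the p53 response from -0.38 to 0.12 (turned without untreated mouse 1), *Plin2* from -0.995 to 0.87 (turned without untreated mouse 1 or treated mouse 2), *Pdp1* from -0.26 to 0.36 (turned without untreated mouse 1 or treated mouse 1), *Slc25a40* from -1.04 to 0.13 (turned without untreated mouse 1), *Utrn* from -0.61 to 0.10 (turned without untreated mouse 1), *Gemin6* from -0.47 to 0.25 (turned without untreated mouse 1 or treated mouse 2), the SMN complex from -0.069 to 0.45 (turned without untreated mouse 2 or treated mouse 1), *Smn1* from -0.014 to 0.45 (turned without untreated mouse 2 or treated mouse 1), *Acadsb* from -0.20 to 0.13 (turned without untreated mouse 3 or treated mouse 1), *Ppargc1a* from -0.93 to 0.39 (turned without treated mouse 2), *Myh4* from -0.14 to 0.039 (turned without treated mouse 2), *Atp2a2* from -2.63 to 0.12 (turned without treated mouse 2), *Arc* from -2.19 to 0.15 (turned without treated mouse 2) and *Rrad* from -2.01 to 1.54 (turned without treated mouse 2). All other directions given for gene groups and named genes were the same under the alternatives run.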
